A study of Canis lupus familiaris with 15 samples.

Results

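Mir-26a, mir-26b and mir-101 are miRNAs best known for repressing EZH2, and they were followed here in dog spleens with hemangiosarcoma, with nodular hyperplasia or without disease. They were selected by the hairpin name in the count tables of the 15 spleens, and the hairpin copies mir-26a-1 and mir-26a-2, and mir-101-1 and mir-101-2, were added together. This gave 3 of the 277 miRNAs, made by 5 of the 313 hairpins, and all 3 passed the filter of at least 10 counts over the 15 libraries that left 250 miRNAs for testing. Small RNA was sequenced from 5 spleens with hemangiosarcoma (HSA), 5 with nodular hyperplasia (NH) and 5 normal spleens (NS), with 1 library per spleen and the spleens of a group labelled as biological replicates. The HSA and NH samples were cut from masses of client-owned dogs undergoing splenectomy, and the NS samples were archived frozen tissue, so that disease and source of tissue cannot be told apart in any comparison with NS. No dog is labelled with a treatment, and all tissue was frozen soon after removal of the spleen.

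A miRNA is a short RNA cut from a hairpin precursor that guides an Argonaute protein to matching sites in messenger RNAs, which are then translated less or degraded. EZH2 is the catalytic subunit of Polycomb repressive complex PRC2, which methylates histone H3 and thereby silences genes. In human cells both mir-101 and mir-26a bind the EZH2 messenger RNA and lower EZH2 protein, and the loss of either miRNA has been linked to raised EZH2 in human tumors. Mir-26b differs from mir-26a by only a few bases and shares its targets. EZH2 itself was not measured here, since only small RNA was sequenced.

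The hairpins lie within protein-coding genes in the dog by the RefSeq annotation of assembly UU_Cfam_GSD_1.0, which is another build than that of the count tables, so that no coordinates are given. Mir-26a-1 lies within CTDSPL, mir-26a-2 within CTDSP2 and mir-26b within CTDSP1, a family of related phosphatases that act on RNA polymerase II. Mir-101-2 lies within RCL1, a gene of ribosomal RNA processing, and mir-101-1 lies within a protein-coding locus that has no gene name. All reads listed as mature lay on the 5' arm of the hairpin for mir-26a and mir-26b and on the 3' arm for mir-101. Whether the other arm of these hairpins is annotated was not checked, so arm use cannot be read from this. Reads of an arm without annotation would be counted outside the mature sequence. The 2 copies of mir-26a differed by at most 45 mature counts in any library and those of mir-101 by at most 34. Mature reads were thus divided almost evenly between the copies, and the sum counts each read once, whereas the mature reads do not tell which copy they came from. Of the mature counts of mir-26b, 94.7% to 97.0% per library were listed as unique to that hairpin.

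Mature counts per library came to 3040736 to 6562849 in HSA, 3768867 to 6073162 in NH and 4374133 to 7548062 in NS. Levels are expressed in CPM, that is counts per 1e6 after TMM scaling of the library sizes, a method that sets the typical miRNA equal between libraries. Mir-143, a miRNA of smooth muscle and fibroblasts, took 6.78% to 38.0% of mature counts in HSA, 10.4% to 21.3% in NH and 34.4% to 51.5% in NS. An edgeR model held the 3 groups, its quasi-likelihood p-values were adjusted by Benjamini-Hochberg over the 250 miRNAs, and a miRNA with an adjusted p under 0.05 is termed called. Over all 250 miRNAs the log2 fold changes had a median of 0.03 for HSA against NS, -0.07 for HSA against NH and 0.23 for NH against NS. HSA replicate 3 stood apart in miRNAs of the pancreas, whose 4 listed members summed to 3518 CPM in it and to at most 16.0 CPM in NH and 6.60 CPM in NS (median of HSA 1.92 CPM), so that the differences are also given without it.

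All 3 miRNAs were among the abundant ones of the spleen. By counts within a library mir-26a ranked between 4 and 13, mir-101 between 4 and 15 and mir-26b between 12 and 27. Mature counts were 51532 to 313065 per library for mir-26a, 43167 to 214734 for mir-101 and 13594 to 83230 for mir-26b, so that counting error was small beside the spread between dogs. Together they made up 3.19% to 7.91% of the mature counts of a library in HSA (median 4.43%), 4.90% to 7.91% in NH (median 6.51%) and 6.30% to 8.84% in NS (median 7.35%).

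Each of the 3 miRNAs was lower in HSA than in NS, and mir-26a was lower in NH than in NS as well. Between HSA and NH 0 of the 3 were called by edgeR or DESeq2, and 0 had an unadjusted p under 0.05 in either, while limma voom also called 0 and found 1, mir-26b, at an unadjusted p under 0.05. Mir-26a, the most abundant of them in NS, had 26594, 34793, 12551, 18132 and 14955 CPM in HSA replicates 1 to 5, 29175, 20734, 22959, 27118 and 26342 CPM in NH, and 56240, 56151, 43037, 57250 and 47642 CPM in NS. Every HSA and every NH library lay below every NS library, whereas the range of HSA enclosed that of NH. Means were 21405 ± 9177 CPM in HSA, 25266 ± 3381 CPM in NH and 52064 ± 6366 CPM in NS (SD, n = 5 each). The spread between dogs was widest in HSA, with a coefficient of variation of 42.9%, against 13.4% in NH and 12.2% in NS.

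Mir-26b, its near relative, had 6131, 10569, 3961, 2834 and 5319 CPM in HSA replicates 1 to 5, 6755, 8714, 10366, 8617 and 8424 CPM in NH, and 11032, 10762, 11442, 12905 and 11661 CPM in NS. Here too each HSA and each NH library lay below the lowest NS library, although HSA replicate 2 came close to it. HSA replicate 2 also exceeded every NH library, and the other 4 HSA libraries lay below every NH library. Means were 5763 ± 2969 CPM in HSA, 8575 ± 1281 CPM in NH and 11560 ± 829 CPM in NS (SD, n = 5 each).

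Mir-101, a repressor of EZH2 of another family, had 25675, 14243, 20839, 9001 and 10244 CPM in HSA replicates 1 to 5, 21321, 18610, 16118, 27458 and 28084 CPM in NH, and 60133, 38214, 21770, 36174 and 24591 CPM in NS. Its groups overlapped, since HSA replicate 1 and NH replicates 4 and 5 lay above the lowest NS library. On this scale NS replicate 1, whose TMM factor was the lowest at 0.49, was far above the other 4 normal spleens. As a share of all mature counts mir-101 had 2.97% there, against 2.10% to 2.70% in the other 4 normal spleens. Means were 16000 ± 7111 CPM in HSA, 22318 ± 5312 CPM in NH and 36177 ± 15164 CPM in NS (SD, n = 5 each).

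**Figure D1:**
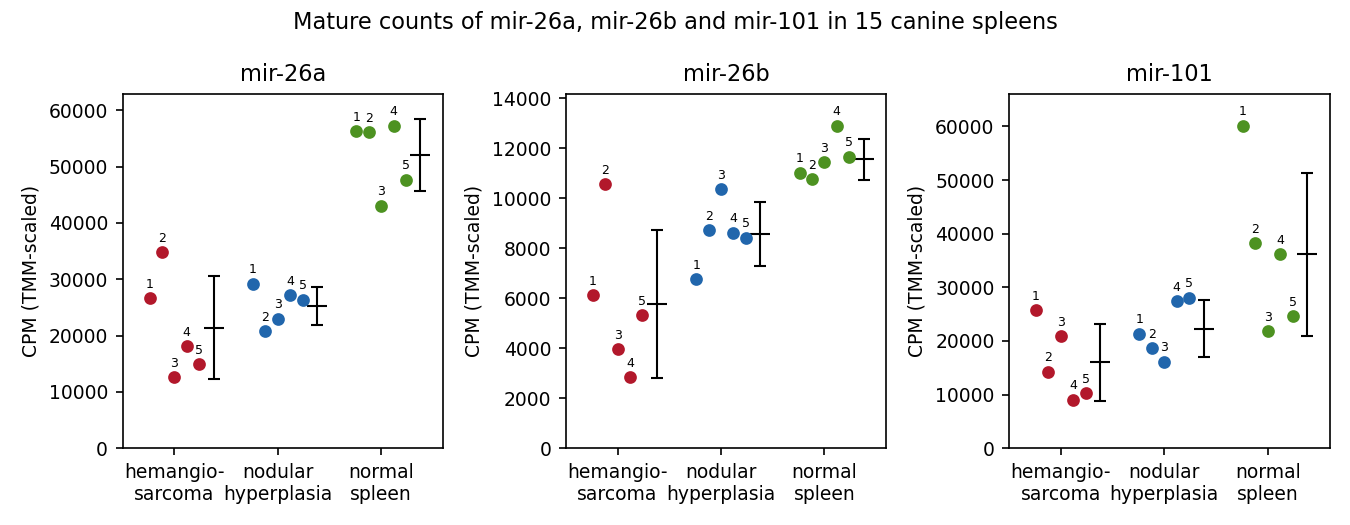
Mature counts of mir-26a, mir-26b and mir-101 as TMM-scaled CPM (y axis) in hemangiosarcoma, nodular hyperplasia and normal spleen; each point is 1 library with its replicate number, and the black line and bar are the mean and SD of 5 libraries. For mir-26a all hemangiosarcoma points (up to 34793 CPM) and nodular hyperplasia points (up to 29175 CPM) lie under the lowest normal spleen (43037 CPM), whereas for mir-101 the groups overlap.

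In HSA against NS the log2 fold change was -1.28 for mir-26a (SE 0.27, edgeR adjusted p = 0.00541), with a 95% interval of -1.85 to -0.72. That of mir-26b was -1.004 (SE 0.28, adjusted p = 0.0209), with an interval of -1.60 to -0.41. That of mir-101 was -1.18 (SE 0.34, adjusted p = 0.0209), with an interval of -1.89 to -0.47. These correspond to 0.411, 0.499 and 0.442 of the NS level, and all 3 fell. Of all 250 miRNAs, 22.4% were called in this comparison and 8.80% were called lower. The groups did not overlap, with HSA lower, for 6.0% of the 250 miRNAs, among them mir-26a and mir-26b. The fold change of mir-26a stood at percentile 5.6 of the 250, that of mir-101 at 8 and that of mir-26b at 12.4.

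The calls for mir-26b and mir-101 rested on single libraries more than that of mir-26a. Leaving out each of the 15 libraries in turn kept mir-26a past the threshold every time, with log2 fold changes of -1.53 to -1.01. Mir-26b was not called without HSA replicate 3 (-0.76, edgeR adjusted p = 0.0636), HSA replicate 5 (-0.88, adjusted p = 0.0591) or NS replicate 5 (-0.87, adjusted p = 0.0517). Mir-101 was not called without HSA replicate 5 (-0.95, edgeR adjusted p = 0.0744) or NS replicate 1 (-0.91, adjusted p = 0.0667). Without HSA replicate 3, the library with pancreatic miRNAs, mir-26a had -1.01 (adjusted p = 0.00941) and mir-101 -1.16 (adjusted p = 0.0307).

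In NH against NS, mir-26a fell, at a log2 fold change of -1.04 with SE 0.27 (edgeR adjusted p = 0.0182) and a 95% interval of -1.60 to -0.48, to 0.485 of the NS level. Mir-26b had -0.43 (SE 0.28, adjusted p = 0.327; interval -1.02 to 0.16) and mir-101 -0.70 (SE 0.33, adjusted p = 0.166; interval -1.40 to 0.01), and neither was called. In this comparison 12.4% of the 250 miRNAs were called and 6.80% were called lower, and 9.20% had NH below NS without overlap. Mir-26b belongs to that 9.20% without being called. The call of mir-26a was lost without NH replicate 2 (-0.98, edgeR adjusted p = 0.0533) and without NS replicate 2 (-1.01, adjusted p = 0.0525).

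In HSA against NH the log2 fold changes were -0.24 for mir-26a (SE 0.26, edgeR adjusted p = 0.517), -0.57 for mir-26b (SE 0.28, adjusted p = 0.155) and -0.48 for mir-101 (SE 0.33, adjusted p = 0.316). Their 95% intervals were -0.79 to 0.32, -1.17 to 0.02 and -1.18 to 0.22. The log2 fold change of HSA against NS lies outside the interval of mir-26a and inside that of mir-26b. For mir-101 it lies at the lower bound of the interval (-1.177, bound -1.181). Of the 250 miRNAs 18.4% were called here, 8.0% lower in HSA, and 4.40% lay lower without overlap. Without HSA replicate 2, which was the highest tumor for mir-26b, mir-26b was lower in HSA with -0.91 (edgeR adjusted p = 0.0124). It was called only in this 1 of the 15 fits with a library left out. Without HSA replicate 3 the log2 fold change of mir-26a was 0.04 (adjusted p = 0.932). By their means all 3 miRNAs thus stood in the order NS, NH, HSA from high to low, and no neighbouring pair in that order was called except NS and NH for mir-26a. The comparisons of HSA and of NH with NS share the 5 normal spleens and are not independent.

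The size of these differences moved with the scaling of the libraries. Scaled by library totals, which include mir-143, the median of all 250 miRNAs was 0.63 for HSA against NS and 0.81 for NH against NS. The log2 fold changes of HSA against NS were then -0.65 for mir-26a, -0.42 for mir-26b and -0.60 for mir-101, none of them called. Those of NH against NS were -0.41 for mir-26a, which was no longer called, 0.21 for mir-26b and 0.03 for mir-101, the last pair with the sign turned. A scaling shifts all miRNAs nearly alike, so that values relative to the median of all miRNAs are close to each other by construction and are given only as a description. Relative to that median, mir-26a lay at -1.33 to -1.23 in HSA against NS and at -1.31 to -1.21 in NH against NS over 6 scalings. Mir-26b lay at -1.05 to -0.96 and mir-101 at -1.28 to -1.13 in HSA against NS.

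**Figure D2:**
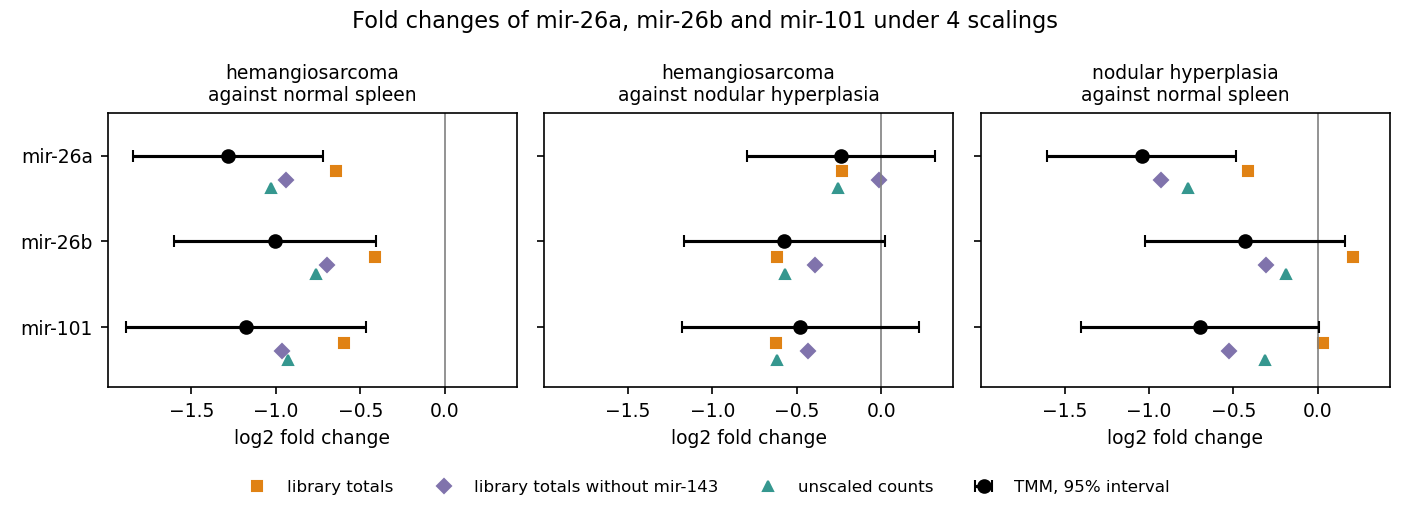
Log2 fold changes (x axis) of mir-26a, mir-26b and mir-101 in the 3 comparisons; black points and bars are the TMM-scaled edgeR estimate with its 95% interval, and colored symbols are the estimates from library totals, library totals without mir-143, and unscaled counts. In hemangiosarcoma against normal spleen all symbols lie left of 0, with library totals nearest to it (-0.65 for mir-26a), and in nodular hyperplasia against normal spleen library totals put mir-26b and mir-101 right of 0.

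Mir-101 showed a further pattern on the scale of library totals, noticed after its values were seen. As a share of all mature counts of a library, which include mir-143, it made up 1.95%, 1.89%, 1.78%, 1.42% and 1.43% in HSA replicates 1 to 5. In NH it made up 2.25%, 3.02%, 2.12%, 2.13% and 3.54%, and in NS 2.97%, 2.45%, 2.10%, 2.70% and 2.59%. All 5 tumors thus lay below all 10 other spleens, and NH and NS overlapped. With library totals edgeR nevertheless did not call mir-101 in HSA against NS (-0.60) or in HSA against NH (-0.62). On this scale 1.20% of the 250 miRNAs lay lower in HSA than in NS without overlap, and 1.20% lay lower in HSA than in NH. The shares of mir-26a and mir-26b overlapped between all groups: mir-26a made up 1.07% to 4.62% in HSA, 2.10% to 3.37% in NH and 2.78% to 5.02% in NS, and mir-26b 0.338% to 1.40% in HSA, 0.668% to 1.42% in NH and 0.545% to 1.23% in NS.

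Summed levels of miRNAs of other cells of the spleen also differed between the groups, not all of them in the direction of these 3. The smooth muscle miRNAs mir-143 and mir-145 summed to 80332 to 507524 CPM in HSA, 64831 to 205554 CPM in NH and 344278 to 1049640 CPM in NS. The 4 lymphocyte miRNAs mir-150, mir-142, mir-155 and mir-342 summed to 1886 to 8251 CPM in HSA, 14559 to 31176 CPM in NH and 8172 to 13796 CPM in NS. Mir-126, a miRNA of endothelium, the cell of origin of hemangiosarcoma, had 3006 to 13777 CPM in HSA, 824 to 2536 CPM in NH and 2161 to 2734 CPM in NS. The erythroid miRNAs mir-451 and mir-144 summed to 15549 to 53992 CPM in HSA, 22474 to 88112 CPM in NH and 44614 to 151082 CPM in NS. The 4 epithelial miRNAs summed to 9.26 to 30.7 CPM in HSA, 37.6 to 59.8 CPM in NH and 39.2 to 49.8 CPM in NS, and of these mir-200b was at 0 in all NH and NS libraries. Single members did not all follow their sum: mir-145, mir-144 and the epithelial mir-200c and mir-141 were not called by edgeR in HSA against NS. The other tested members of these lists were called there. The part of these cell types in the levels of mir-26a, mir-26b and mir-101 was not tested, and in bulk tissue fewer cells that express a miRNA and less of it per cell cannot be told apart.

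No shift in the proportions of the 3 miRNAs to each other passed its test over the 9 comparisons made. The smallest possible p was too large for a lone shift to pass after adjustment, even with fully separated groups. A ratio of counts within 1 library does not depend on scaling. Mir-26a over mir-101 had log2 ratios of 0.05, 1.29, -0.73, 1.01 and 0.55 in HSA replicates 1 to 5, 0.45, 0.16, 0.51, -0.02 and -0.09 in NH, and -0.10, 0.56, 0.98, 0.66 and 0.95 in NS. Mir-26a exceeded mir-101 in 11 of the 15 libraries, the tumors spread over the whole range, and all groups overlapped. The mean log2 ratio was 0.43 ± 0.80 in HSA, 0.20 ± 0.27 in NH and 0.61 ± 0.44 in NS (SD, n = 5 each), and no difference between groups passed the exact permutation test, p = 0.119 to 0.722 (two-sided, 252 orderings, smallest possible p 0.00794).

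Mir-26b over mir-101 had mean log2 ratios of -1.50 ± 0.81 in HSA, -1.36 ± 0.48 in NH and -1.55 ± 0.61 in NS (SD, n = 5 each), with exact permutation p = 0.603 to 0.913. Mir-26a over mir-26b had log2 ratios of 1.49 to 2.68 in HSA (median 1.72), 1.15 to 2.11 in NH (median 1.64) and 1.91 to 2.38 in NS (median 2.15). In linear terms mir-26a was 2.21 to 6.40 times as abundant as mir-26b. The ratio of these relatives was lowest in NH, where the mean log2 ratio was 0.60 below that of NS (1.56 ± 0.38 in NH and 2.16 ± 0.20 in NS), with 4 of 5 NH libraries below the lowest NS library (exact permutation p = 0.0238). Over the 9 ratio tests this did not pass (Benjamini-Hochberg adjusted p = 0.214), and no lone shift could have passed.

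**Figure D3:**
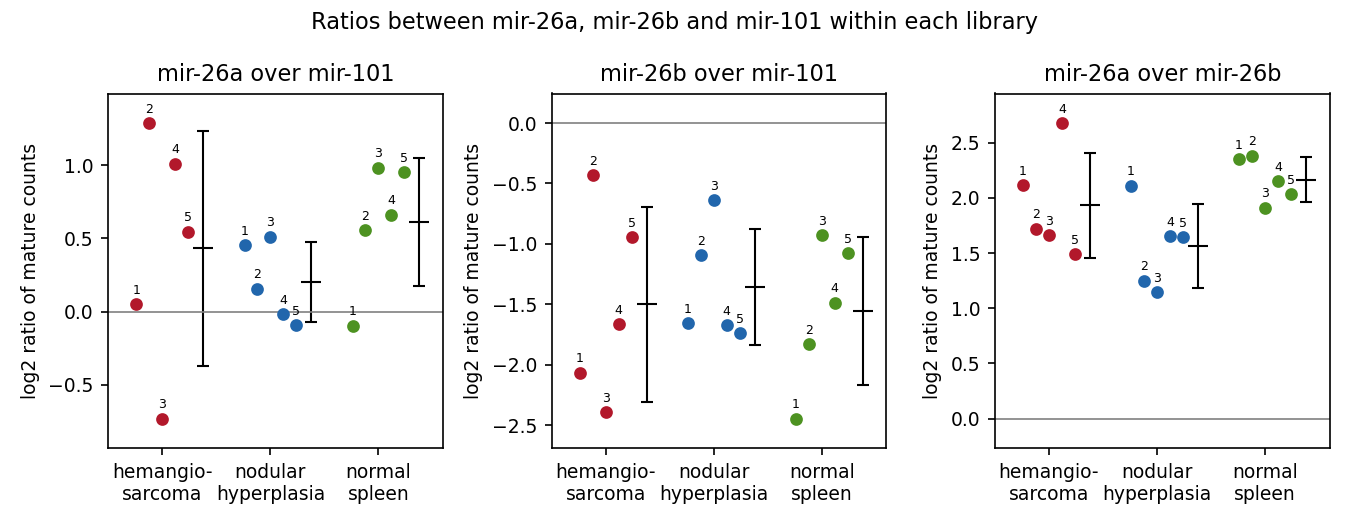
Log2 ratios of mature counts (y axis) between pairs of mir-26a, mir-26b and mir-101 within each library; points are libraries with their replicate numbers, black lines and bars are the mean and SD of 5 libraries, and the grey line marks equal counts. The hemangiosarcoma libraries spread from -0.73 to 1.29 for mir-26a over mir-101, and 4 of the nodular hyperplasia libraries lie under all normal spleens for mir-26a over mir-26b.

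The exactness of the reads differed between the 3 miRNAs. The tables list, within the mature counts, the reads that match the annotated mature sequence exactly; other mature reads are variants of it. Over all libraries 47.4% of the mature counts of mir-26a, 38.2% of those of mir-26b and 14.2% of those of mir-101 were exact, against a median of 33.2% over the 121 miRNAs with at least 100 counts in every library. Most reads of mir-101 in the dog spleen were thus not the annotated form, and 28 of the 121 miRNAs had a lower share. The Wilson 95% interval of an exact share of mir-26a in 1 library was at most ± 0.429 points wide, which covers counting error only.

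In tumors the exact share averaged higher for mir-26a and lower for mir-101 than in the other groups, although neither difference passed the threshold over all tests. For mir-26a it was 53.4%, 52.4%, 55.8%, 53.4% and 49.8% in HSA replicates 1 to 5, 49.9%, 41.7%, 44.2%, 44.7% and 48.6% in NH, and 49.7%, 47.9%, 44.6%, 45.2% and 41.4% in NS. All tumors lay above all normal spleens, and 1 NH library reached the lowest tumor. The mean in HSA exceeded that in NS by 7.23 percentage points (exact permutation p = 0.00794, the smallest possible) and that in NH by 7.13 points (exact permutation p = 0.0159). Over the 18 tests of read classes both had a Benjamini-Hochberg adjusted p of 0.0714. Even at the smallest possible p, a difference can pass over 18 tests only if several tests have similarly small p-values. Fully separated groups in a lone test therefore do not suffice, and a missed threshold does not show that the shares are alike. The difference from NH passed the threshold without NH replicate 1 (8.14 points), with an adjusted p of 0.0476 by the exact permutation test. It did so only in this 1 of the 15 runs with a library left out, which drops the NH library nearest to the tumors. The difference from NS reached the same adjusted p without NH replicate 1 or 3. That comparison holds no NH library, so its difference and unadjusted p stayed the same and only the adjustment over the 18 tests moved. Of the 121 miRNAs, 4.13% had HSA above NS in exact share without overlap.

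For mir-101 the exact share was 12.0%, 14.7%, 10.7%, 10.9% and 11.2% in HSA replicates 1 to 5, 15.1%, 15.2%, 12.8%, 14.8% and 16.2% in NH, and 14.5%, 14.98%, 14.5%, 13.9% and 13.9% in NS. HSA replicate 2 lay with the other groups, and the other 4 tumors lay below all NH and NS libraries. The mean in HSA was 2.91 points below that in NH (exact permutation p = 0.0159, adjusted p = 0.0714) and 2.48 points below that in NS (exact permutation p = 0.0397, adjusted p = 0.119). For mir-26b the exact share had a range of 31.9% to 49.8% in HSA, 33.8% to 41.1% in NH and 33.9% to 39.9% in NS, which overlapped (exact permutation p = 0.119 to 0.889). Without HSA replicate 3, the lowest tumor, it was 8.35 points higher in HSA than in NS (exact permutation, adjusted p = 0.0476). Only this 1 of the 15 runs with a library left out passed, and it drops the library that ran against the difference.

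Few reads of these hairpins lay outside the annotated mature sequence, and for mir-26a they averaged highest in NH. In mir-26a they made up 0.969%, 1.12%, 2.19%, 0.847% and 1.11% of hairpin counts in HSA replicates 1 to 5, 1.56%, 1.91%, 1.40%, 1.56% and 1.77% in NH, and 0.977%, 0.903%, 0.907%, 0.842% and 0.930% in NS. All NH libraries lay above all NS libraries, by 0.728 points in the mean (exact permutation p = 0.00794, the smallest possible; adjusted p = 0.0714 over 18 tests). Without HSA replicate 3, the highest tumor, the share of mir-26a in HSA was 0.627 points below that in NH (exact permutation, adjusted p = 0.0476). Only this 1 of the 15 runs with a library left out passed, and it drops the tumor that ran against the difference. The difference between NH and NS passed the threshold without NH replicate 1 (0.747 points) or NH replicate 3 (0.788), each with that adjusted p. It also did so without HSA replicate 3 (0.728), a library outside this comparison, so that only the adjustment over the 18 tests moved there. Of the 121 miRNAs 9.09% had NH above NS in this share without overlap. Mir-26b had 1.21% to 2.25% in HSA, 1.43% to 2.30% in NH and 1.36% to 1.53% in NS, and mir-101 had 0.362% to 0.592% in HSA, 0.411% to 0.516% in NH and 0.400% to 0.501% in NS, with adjusted p of at least 0.119. Without NH replicate 3, the lowest NH library, the share of mir-26b was 0.502 points higher in NH than in NS (exact permutation, adjusted p = 0.0476). This too was the only 1 of the 15 runs that passed. Over whole libraries, reads outside mature sequences made up 7.86% to 22.8% in HSA, 5.37% to 10.4% in NH and 4.83% to 8.57% in NS, and their part in the shares of these hairpins was not tested.

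**Figure D4:**
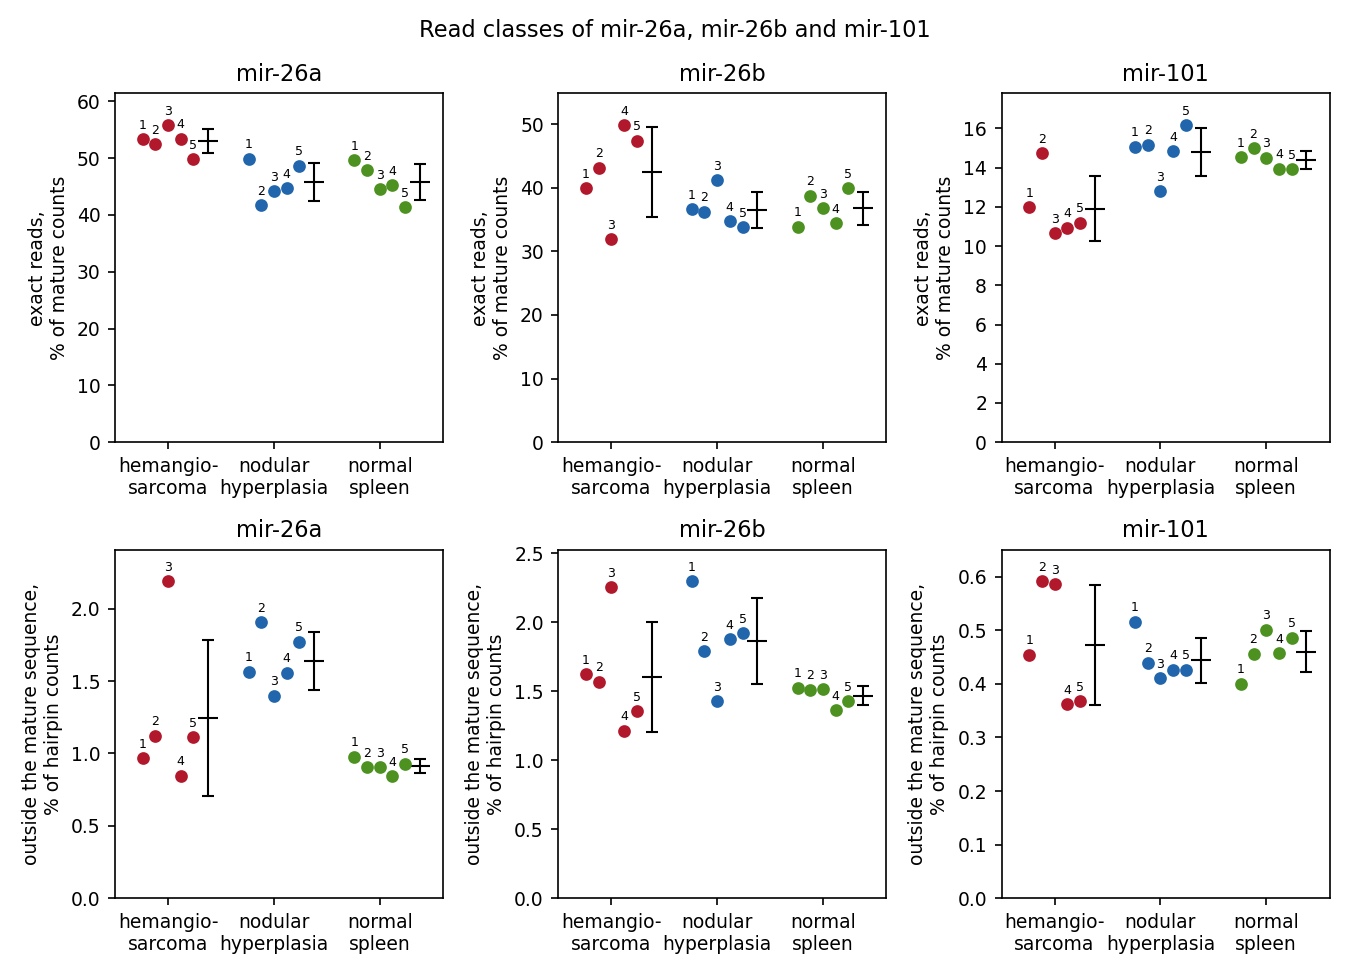
Exact reads as a percentage of mature counts (upper row) and reads outside the mature sequence as a percentage of hairpin counts (lower row) for mir-26a, mir-26b and mir-101; points are libraries with their replicate numbers, and black lines and bars are the mean and SD of 5 libraries. Exact reads of mir-26a lie at 49.8% to 55.8% in hemangiosarcoma, above all normal spleens (41.4% to 49.7%), and exact reads of mir-101 lie lowest in 4 of the 5 tumors.

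Reads outside the mature sequence differed more between the copies of a hairpin than mature reads did, by up to 26.8% of their sum for mir-26a, against up to 0.0272% for mature reads. Chosen after the values were seen, a comparison of the copies found more such reads on mir-26a-2, of CTDSP2, than on mir-26a-1, of CTDSPL, in 15 of 15 libraries. The excess over both copies together was 6.41% to 26.8% in HSA (median 10.3%), 6.13% to 12.4% in NH (median 9.25%) and 5.35% to 7.71% in NS (median 6.98%). For mir-101 the copy mir-101-1 exceeded mir-101-2, of RCL1, in 15 of 15 libraries, by 3.60% to 15.2% in HSA, 3.43% to 10.99% in NH and 2.34% to 3.97% in NS. The groups overlapped, and no difference passed over the 6 tests (exact permutation p = 0.0317 to 0.722, adjusted p of at least 0.119).

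Across the 15 libraries mir-101 was matched most closely by mir-140, mir-30e and let-7f. Likeness was measured by Pearson's r of log2(CPM + 1) with the 116 miRNAs of at least 100 CPM in the mean, as a description, since all values share the same libraries and scaling and the groups differ in level. Mir-140, which is known for its role in cartilage, had r = 0.98 with mir-101 (rho 0.98) and 0.97 within groups, and mir-30e had r = 0.96 (rho 0.92) and 0.95 within groups. Let-7f, itself on the list of EZH2 repressors described last, had r = 0.84 (rho 0.79) and 0.65 within groups. Without the 2 libraries farthest from the median of mir-101 r was 0.96 for mir-140, 0.92 for mir-30e and 0.86 for let-7f. The ratio of mir-101 to mir-140 counts was 5.28 to 6.95 in HSA, 5.34 to 6.07 in NH and 5.08 to 6.10 in NS, while mir-101 had 9001 to 60133 CPM and mir-140 had 1296 to 10686 CPM over the 15 libraries. In HSA against NS the log2 fold change of mir-140 was -1.40 with SE 0.32 (edgeR adjusted p = 0.00674) and that of mir-30e was -1.36 with SE 0.33 (adjusted p = 0.00978).

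Mir-26b was matched most closely by mir-30b, with r = 0.91 (rho 0.91) and 0.84 within groups, followed by mir-26a with r = 0.80 (rho 0.86) and 0.59 within groups. Its next, mir-142, had r = 0.72 (rho 0.36) and 0.79 within groups, and r was 0.32 without the 2 libraries farthest from the median of mir-26b. Mir-26a was matched by mir-181a (r = 0.85, rho 0.81, 0.71 within groups), let-7f (r = 0.85, rho 0.84, 0.49 within groups) and mir-143 (r = 0.84, rho 0.85, 0.77 within groups). Mir-143 is the smooth muscle miRNA that took the large share of the counts. Between mir-26a and mir-101 r was 0.71, and 0.33 within groups. Between mir-26b and mir-101 it was 0.60, and 0.13 within groups.

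**Figure D5:**
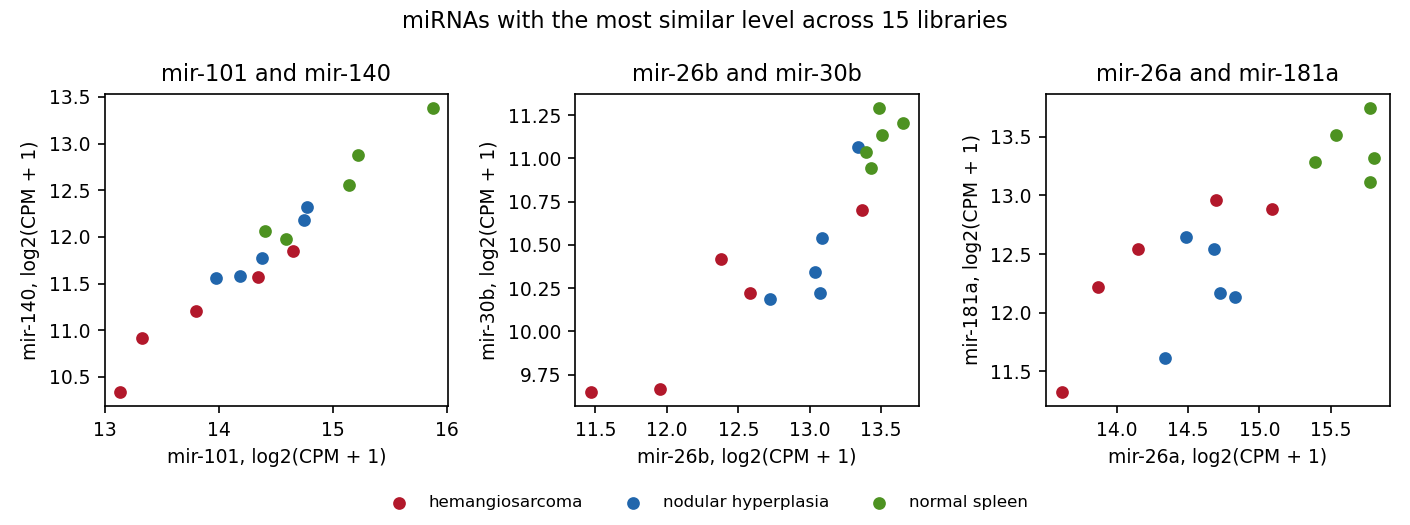
Levels of mir-101 with mir-140, mir-26b with mir-30b, and mir-26a with mir-181a, each as log2(CPM + 1) on both axes; every point is 1 of 15 libraries, colored by group. Mir-101 and mir-140 lie along 1 line through all 3 groups (r = 0.98), and the points of the other pairs are more scattered (r = 0.91 and 0.85).

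Other miRNAs known to repress EZH2 in human cells did not all follow. The list held 18 names from the let-7 family, mir-98, mir-124, mir-137, mir-138a, mir-138b, mir-144, mir-214, mir-217, mir-25 and mir-30d, of which 16 were tested. In HSA against NS edgeR called 3 of the 16 lower, beside 8.80% over all 250, and 0 higher, beside 13.6%. The other 13 were not called. DESeq2 and limma voom also called 0 higher. At an unadjusted p under 0.05 edgeR had 1 higher, the pancreatic mir-217. It had 5.11 CPM in HSA replicate 3 and 0 in the other tumors. The median log2 fold change of the 16 was 0.03, as was that of all 250. The 3 were let-7f (-0.95, SE 0.20, edgeR adjusted p = 0.00541), let-7g (-0.58, SE 0.19, adjusted p = 0.0347) and mir-25 (-0.72, SE 0.25, adjusted p = 0.0448). The let-7 family is known for holding back growth genes, and mir-25 belongs to a cluster that promotes the cell cycle. None of the 3 was called with library totals, which put let-7g at 0.02 and called 1 of the 16, let-7e, higher (1.32). None of them was called with unscaled counts or library totals without mir-143 either, and with the upper quartile let-7f alone of the 3 was called (-0.82).

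Let-7f, the most changed of these, had 10859 to 15129 CPM in HSA (median 13813), 15899 to 20650 CPM in NH (median 19158) and 20113 to 31421 CPM in NS (median 28448). With TMM scaling its HSA range lay below those of both other groups, narrowly so for NH (15129 against 15899 CPM). Beside it, 6.0% of the 250 miRNAs lay lower in HSA than in NS without overlap, and 4.40% lower than in NH. With library totals the HSA range of let-7f overlapped both other groups. Its log2 fold changes were then -0.30 in HSA against NS and -0.47 in HSA against NH, neither of them called. In HSA against NH 1 of the 16 was called, beside 10.4% called higher over all 250. This was let-7e, which was higher in HSA (0.98, SE 0.33, edgeR adjusted p = 0.0491) with 364 to 1277 CPM in HSA and 173 to 503 CPM in NH. It lost that call with limma voom, which called 0 of the 16 (2 at an unadjusted p under 0.05), and with DESeq2 size factors, library totals and unscaled counts. DESeq2, and edgeR with the upper quartile, called let-7b as well. In NH against NS 0 of the 16 were called by edgeR, beside 12.4% called over all 250, and 2 had an unadjusted p under 0.05. DESeq2 called 1, let-7f, lower, and limma voom called 0, with 1 at an unadjusted p under 0.05. Library totals called 1, mir-124, higher. Its level was very low, at 0.26 to 2.18 CPM in NH and at most 0.66 CPM in NS. The median of the 16 by edgeR was -0.26, beside 0.23 over all 250 miRNAs.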

How the data were processed

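Small RNA of 15 canine spleens was sequenced on an Illumina instrument. The authors checked reads with FastQC, trimmed them and used CLCbio to count them on dog hairpins from miRBase (release 20 and the build canFam3 are named in the submitters' notes). The CLCbio version is not given in the sources used here. What was deposited are unnormalized counts of each hairpin in each library, divided into mature counts of each arm, exact mature counts and all hairpin counts. The expression value column of the deposited tables holds counts of the 5' arm alone and is therefore 0 for mir-101; by itself it served only as an alternative.

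Counts of the 5' and 3' mature sequences were summed, as were hairpin copies of 1 name. The 250 miRNAs that summed to 10 counts or more entered edgeR 4.0.16 (R 4.3.3) with TMM factors (0.76 to 1.58 in HSA, 0.78 to 1.62 in NH and 0.49 to 1.05 in NS), quasi-likelihood tests on 3 group means and Benjamini-Hochberg adjustment at 0.05. The study's t-tests were not used with 5 libraries a group. Standard errors are the absolute log2 fold change divided by the root of F. Ratios and shares were tested by exact two-sided permutation (252 orderings), adjusted over 9 and 18 tests. With these group sizes no lone difference could pass after that adjustment. Likeness used log2(CPM + 1). DESeq2 1.42.0, limma 3.58.1 voom, other scalings, filters and read classes, a replicate block and leaving out each library served as alternatives. Permutation tests ran in Python 3.11.15 with pandas 2.3.3 and numpy 2.4.6, and figures were drawn with matplotlib 3.10.9.

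The edgeR and permutation steps were tested on simulated data. No library was a copy of another in its group (30 pairs, chi-square at least 746 per degree of freedom). The 3 miRNAs and the lists (other EZH2 repressors, cell type miRNAs) were chosen with earlier results of these data known. Named beside the 3 were EZH2 repressors called in any comparison, the 3 closest miRNAs by Pearson's r and mir-143; the rule's miRNAs of the same seed were not analysed here, since no table of sequences was at hand. Striated muscle miRNAs summed to 398 to 5178 CPM in HSA, 76.9 to 2002 in NH and 4686 to 14172 in NS, and mir-122 of liver had at most 96.7 in HSA, 115 in NH and 61.6 in NS; mir-486 was not measured.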

Additional observations from a re-analysis of the deposited data

Results flagged for a closer look

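In HSA replicate 3, 2.19% of the mir-26a hairpin counts lay outside the mature sequence, against 0.847% to 1.12% in the other 4 tumors, and its gap to the next library was 0.796 of the range of the group. This was the library with pancreatic miRNAs at 3518 CPM, whose part in it was not tested. In NH replicate 1, 0.516% of the mir-101 hairpin counts lay outside the mature sequence, against 0.411% to 0.439% in the other 4 NH libraries (gap 0.728 of the range). Both exceed Dixon's critical value of 0.71 for 5 samples. They were 2 of 36 groups of values examined, and chance alone flags about 1 in 20 groups.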

How the results depend on the processing

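Mir-26a, mir-26b and mir-101 kept their calls in HSA against NS, and mir-26a in NH against NS, with DESeq2, limma voom, DESeq2 size factors, either change of the filter and all hairpin reads. The scaling mattered most. In HSA against NS the log2 fold changes without a call were -0.65, -0.42 and -0.60 (mir-26a, mir-26b, mir-101) with library totals, -1.03, -0.76 and -0.93 with unscaled counts, -0.94 (mir-26a) and -0.70 (mir-26b) with library totals without mir-143, and -1.07 (mir-101) with the upper quartile. Mir-26b also lost its call with exact reads (-0.74), by exact permutation of raw counts (-0.76) and in a fit of only these groups (-0.92), where mir-101 lost it too (-1.13). In NH against NS mir-26a lost its call with library totals (-0.41), unscaled counts (-0.77) and library totals without mir-143 (-0.93), and library totals turned mir-26b to 0.21 and mir-101 to 0.028. The causes were not tested. The median of all miRNAs moved along with these scalings.

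The count of called miRNAs was 56 in HSA against NS (24 unscaled, 35 with the expression value column), 46 in HSA against NH (22 with library totals, 22 in the fit of only these groups, 29 with the replicate block) and 31 in NH against NS (52 with DESeq2, 51 with library totals, 56 in the fit of only these groups, 16 unscaled, 15 with the expression value column). The share of higher calls in NH against NS was 14 of 31 with TMM and 45 of 51 with library totals.

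Same-numbered spleens come from different dogs, and their deviations correlated at -0.33 to 0.32 over 15 pairs, with 3 of 15 libraries closest to their own number, so that the numbers do not pair the samples. With the replicate block the log2 fold changes were -1.34 for mir-26a, -1.09 for mir-26b and -1.16 for mir-101 in HSA against NS and -1.02 for mir-26a in NH against NS, and the block changed no call of these miRNAs.

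With each library left out in turn, mir-26b had -1.34 to -0.76 and mir-101 -1.41 to -0.91 in HSA against NS, mir-26a had -1.10 to -0.98 in NH against NS, and in HSA against NH mir-26a had -0.49 to 0.035 and mir-26b -0.91 to -0.33. Called miRNAs numbered 36 to 61 in HSA against NS, 26 to 60 in HSA against NH and 4 (without NS replicate 2) to 46 in NH against NS. Differences of log2 ratios near 0 changed sign: mir-26a over mir-101 in HSA against NS (-0.39 to 0.11, and 0.32 with exact reads), and mir-26b over mir-101 in HSA against NH (-0.41 to 0.083, and 0.39 with exact reads), HSA against NS (-0.22 to 0.28) and NH against NS (-0.030 to 0.35). Exact shares had ranges of 6.10 to 8.14 points (mir-26a, HSA against NH), 6.13 to 8.21 (mir-26a, HSA against NS), -0.99 to 1.13 (mir-26a, NH against NS), 3.88 to 8.35 (mir-26b, HSA against NS) and -1.41 to 0.54 (mir-26b, NH against NS). Shares outside the mature sequence had -0.627 to -0.292 (mir-26a, HSA against NH), 0.661 to 0.788 (mir-26a, NH against NS), -0.0277 to 0.232 (mir-26b, HSA against NS), 0.285 to 0.502 (mir-26b, NH against NS), -0.0177 to 0.0396 (mir-101, HSA against NS) and -0.00143 to 0.0559 (mir-101, HSA against NH). From the copy mir-26a-2 alone, the outside share differed by 0.420 points in HSA against NS and 0.823 in NH against NS, and the exact share by 7.24 in HSA against NS, each past the threshold. From mir-101-2 alone the outside share differed by -0.00877 in HSA against NS.

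With 43167 counts or more of mir-26a and mir-101 in each library, counting error was small beside the spread between the 5 dogs of a group. The choice of scaling also moved the calls, and the exact permutation tests were bounded by their smallest possible p.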
